A study of Mus musculus with 6 samples.

Results

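The cadherin superfamily genes were taken as every row of the count tables whose symbol was Cdh or Fat followed by a digit, or began with Pcdh, Clstn, Celsr or Dchs. This gave 103 genes of 21926 rows. The wells came from 6 mice at postnatal day 10, 3 male and 3 female, all of genotype Ai14f/+;Sf1-Cre, with no group lacking the driver or the reporter. In this cross a fluorescent reporter is switched on permanently wherever Sf1-Cre, a driver for the Nr5a1 (SF-1) lineage of the ventromedial hypothalamus (VMH), has been active. A cell can therefore carry the label without a current Nr5a1 count. Cells were dissociated from roughly dissected hypothalamus and sorted by fluorescence, 96 wells per mouse. The 6 mice were the replicates. Wells were compared by whether they held at least 1 count of a marker, called detected and undetected wells, for each of 6 markers. A marker's RNA can be present in a cell and not counted, more so in a shallow well. An undetected well is therefore not a cell shown to lack the marker. Nr5a1 and Sox14 encode transcription factors of the VMH, Bcl11b another transcription factor, and Tac1, Pdyn and Sst encode neuropeptide precursors. Males were also compared with females. The series concerns estrogen receptor alpha and sex differences in energy expenditure.

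Cadherins are membrane proteins that bind across cell contacts through calcium-dependent extracellular repeats. Type I and type II classical cadherins bind catenins inside the cell, and neurons of different groups often carry different sets of them. The clustered protocadherins lie in alpha, beta and gamma arrays, and single neurons use small, varying sets of these isoforms, which are known from other neurons for self-recognition. Non-clustered protocadherins act in synapse and axon arrangement. Calsyntenins are synaptic adhesion and transport proteins, and Celsr, Fat and Dchs are the large cadherins of planar cell polarity.

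A well was kept with at least 500 genes with a count and under 25% of counts in mitochondrial genes, which left 530 of 576 wells. Kept wells held 535469 to 783270 counts in all per male and 185654 to 591768 per female. The median well had 5945 to 7979.5 counts in males and 2097 to 6737.5 in females, with female 2 the shallowest. The 96 well labels were the same on the 6 plates, and no 2 kept wells had identical counts. Neuron markers were abundant in every class. The VMH list (Nr5a1, Fezf1, Slc17a6, Adcyap1, Nkx2-1, Sox14) was detected throughout, apart from the marker that defined an undetected class. Nr5a1 itself had a count in 156 of 530 wells. Non-neuronal markers outnumbered neuron markers in 12 wells, 10 of them from female 1. All 12 were undetected wells for each of the 6 markers.

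Counts of the family were found in nearly every well. Of 103 members, 86 had at least 1 count, 6340 counts in all, and 523 wells (98.7%) held a count of some member. The family took between 0.176% and 0.213% of a mouse's counts. The median well held 8, 7 and 9 members in males 1 to 3 and 7, 3 and 8 in females 1 to 3, and in the 475 wells deep enough to be thinned to 2000 counts the median was 3 in every mouse. Thinning left out 39 of the 87 wells of female 2 and 12 of the 88 of female 1. Only 31 members had a count in at least 20 wells and could be tested, so no statement below covers all members.

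Cdh13, Clstn3 and Clstn1 were the most widely detected. Cdh13 (T-cadherin, which is anchored in the membrane by a lipid and lacks the catenin-binding tail) had a count in 379 wells. Its level was 351 ± 30.4 CPM (counts of a gene scaled to the total of the summed wells of a mouse, in the usual CPM unit; mean ± SD, n = 6 mice). Clstn3 had a count in 361 wells and a level of 248 ± 76.5 CPM, and Clstn1 in 312 wells and 170.4 ± 31.8 CPM. Clstn2 was found in 91 wells. Divided by the length of the gene's exons, Clstn3 stood highest at a mean level of 49.8 CPM per kilobase, ahead of Clstn1 at 36.5 and Cdh13 at 31.2. The sources used here do not say whether counts came from one end of the transcript, so this order depends on the scale.

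Among the non-clustered protocadherins, 11 of 12 could be tested and 458 wells held at least 1 of them. Pcdh17, a protocadherin of axon bundling and presynaptic organisation, was found in 226 wells at 148 ± 58.4 CPM. Pcdh8 (arcadlin, whose protein is linked to removal of N-cadherin from synapses) was found in 197 wells at 87.4 ± 41.8 CPM. Its level was 97.0, 76.6 and 92.9 CPM in males 1 to 3 and 127, 10.8 and 120.0 CPM in females 1 to 3, so female 2 stood far below the other 5 mice. Pcdh19, an X-linked gene whose loss of function causes a human epilepsy, was found in 185 wells at 82.5 ± 15.2 CPM. Pcdh9 followed with 172 wells, Pcdh7 with 149 and Pcdh10 with 104. Pcdh12 had 1 count.

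Pcdh17 and Pcdh8 lie on chromosome 14 (GRCm38/mm10), at 84443563 to 84539002 on the plus strand and at 79766775 to 79771312 on the minus strand. Their promoters are shown as examples of genes that passed a test below. Cdh13 and Cdh4 also passed, and their promoters were not searched. Pcdh17 passed for Nr5a1 and for Sox14, whose proteins bind DNA. Pcdh8 passed only for Tac1, which encodes a neuropeptide precursor. Each is the 250 bases before the RefSeq start of the gene (GRCm38.p6), chr14:84443313-84443562 on the plus strand for Pcdh17 and chr14:79771313-79771562 on the minus strand for Pcdh8. Capitals mark matches to the CCAAT box (CCAAT or its reverse, ATTGG) and to the SOX core (ATTGT or ACAAT).
Pcdh17: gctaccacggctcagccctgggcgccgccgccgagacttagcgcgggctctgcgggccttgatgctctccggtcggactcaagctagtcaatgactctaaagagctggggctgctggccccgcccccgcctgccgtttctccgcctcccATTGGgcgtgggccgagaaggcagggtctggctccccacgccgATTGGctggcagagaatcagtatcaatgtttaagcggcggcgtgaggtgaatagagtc
Pcdh8: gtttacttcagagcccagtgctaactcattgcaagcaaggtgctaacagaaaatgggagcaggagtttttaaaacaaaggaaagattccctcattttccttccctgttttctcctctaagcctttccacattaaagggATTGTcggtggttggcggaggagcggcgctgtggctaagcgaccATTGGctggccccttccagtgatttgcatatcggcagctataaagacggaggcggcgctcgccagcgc
The Pcdh17 window held 2 CCAAT boxes and no SOX core. The Pcdh8 window held 1 CCAAT box and 1 SOX core. Neither held the SF-1 site letters AAGGTCA or TGACCTT. Of 32851 promoter windows in the table, 33.8% held a CCAAT box, 27.7% a SOX core and 4.08% the SF-1 letters, searched on both strands. The Pcdh17 window was 64.8% G and C and the Pcdh8 window 51.2%, beside a median of 52.4% over all windows. These are letter matches in a short window and say nothing of binding elsewhere.

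Of the classical cadherins, Cdh4 (R-cadherin, a type I cadherin) was the most widely detected, in 184 wells at 96.2 ± 19.1 CPM. Cdh2 (N-cadherin, the main type I cadherin of synapses) was found in 71 wells and Cdh15 (M-cadherin, best known from muscle) in 54. Among the type II cadherins Cdh22 was found in 149 wells at 61.0 ± 23.0 CPM, Cdh8 in 72 and Cdh11 in 59. Cdh12, Cdh9, Cdh18 and Cdh7 were found in 22 to 33 wells each. Of the polarity cadherins, Celsr2 was found in 136 wells at 54.9 ± 9.35 CPM, Fat1 in 43, Dchs1 in 35, Celsr3 in 32 and Fat3 in 23, and Celsr1 in 2. No count was found of the P-cadherin gene Cdh3, of the endothelial cadherin gene Cdh5, of Cdh16, Cdh17, Cdh19, Cdh23, Cdh24 or Cdh26, or of 9 clustered protocadherins. A count of 0 in 530 wells refers to wells with a count, not to cells without the RNA.

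Free RNA was gauged only from the 12 kept wells in which non-neuronal markers led, 10 of female 1 and 1 each of males 1 and 2. Cdh13, Pcdh8, Cdh4, Cdh22 and Pcdh19 had no count in any of them, Clstn3 and Clstn1 each had a count in 1, and Pcdh17, Pcdh9 and Pcdh10 each in 2. For Pcdh10 that share, 16.7%, was close to its 19.6% over all kept wells. These wells were shallow, at a median of 938.5 counts beside 6013.5 in the other 518, and a shallow well holds fewer genes of any kind. Over all kept wells, oligodendrocyte lineage markers had a count in 14.9% (female 2) to 37.0% (male 3) of a mouse's wells. Microglia markers had one in 0 (male 1) to 3.49% (female 3). Whether such counts came from free RNA was not tested.

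**Figure D1:**
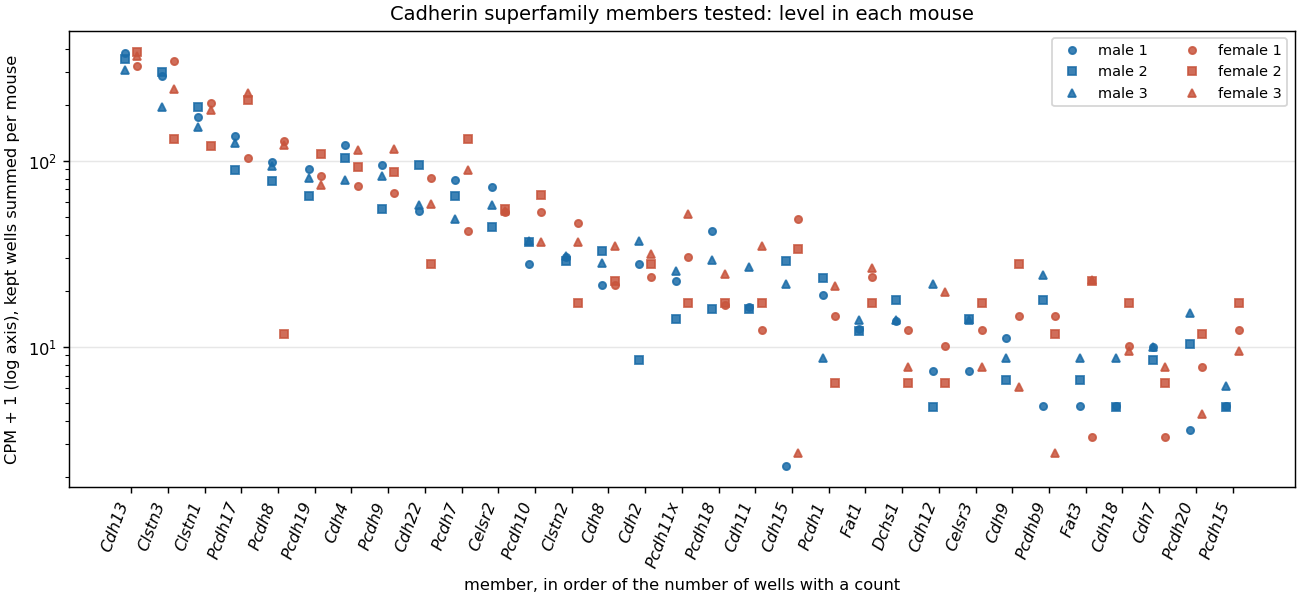
Level of each of the 31 tested members in each mouse, as CPM + 1 on a log axis, in order of the number of wells with a count; each point is the summed kept wells of 1 mouse, males in blue left of females in red. Cdh13 stood at 307 to 382 CPM in the 6 mice, while Pcdh8 was at 10.8 CPM in female 2 and at 76.6 to 127 CPM in the other 5.

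The clustered protocadherins were sparse. The 56 clustered genes on chromosome 18 had 364 counts together, 47 of them had a count, and Pcdhb9 alone reached 20 wells (30 wells, 39 counts). Pcdhgc4 was found in 19 wells and Pcdhb19 in 17. Summed over an array, the beta genes stood at 73.1 ± 12.6 CPM, the gamma genes at 20.6 ± 6.28 CPM and the alpha genes at 16.3 ± 10.9 CPM (SD, n = 6). The alpha sum was 28.1, 9.34 and 12.9 CPM in males 1 to 3 and 20.4, 0 and 27.0 CPM in females 1 to 3. The alpha isoforms share their last exons with each other, as do the gamma isoforms, while beta isoforms are single-exon genes. The sources used here do not say how reads that fit several isoforms were counted, so alpha and gamma values are uncertain.

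Most wells held no clustered isoform or a single one. No isoform had a count in 284 wells (53.6%), 1 isoform in 176, 2 in 55, 3 in 13, 4 in 1 and 6 in 1. The mean number per well was 0.806, 0.631 and 0.891 in males 1 to 3 and 0.568, 0.218 and 0.651 in females 1 to 3, with the shallowest mouse, female 2, lowest. At this depth the number of isoforms in a cell cannot be told from the number of wells in which they were counted.

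**Figure D2:**
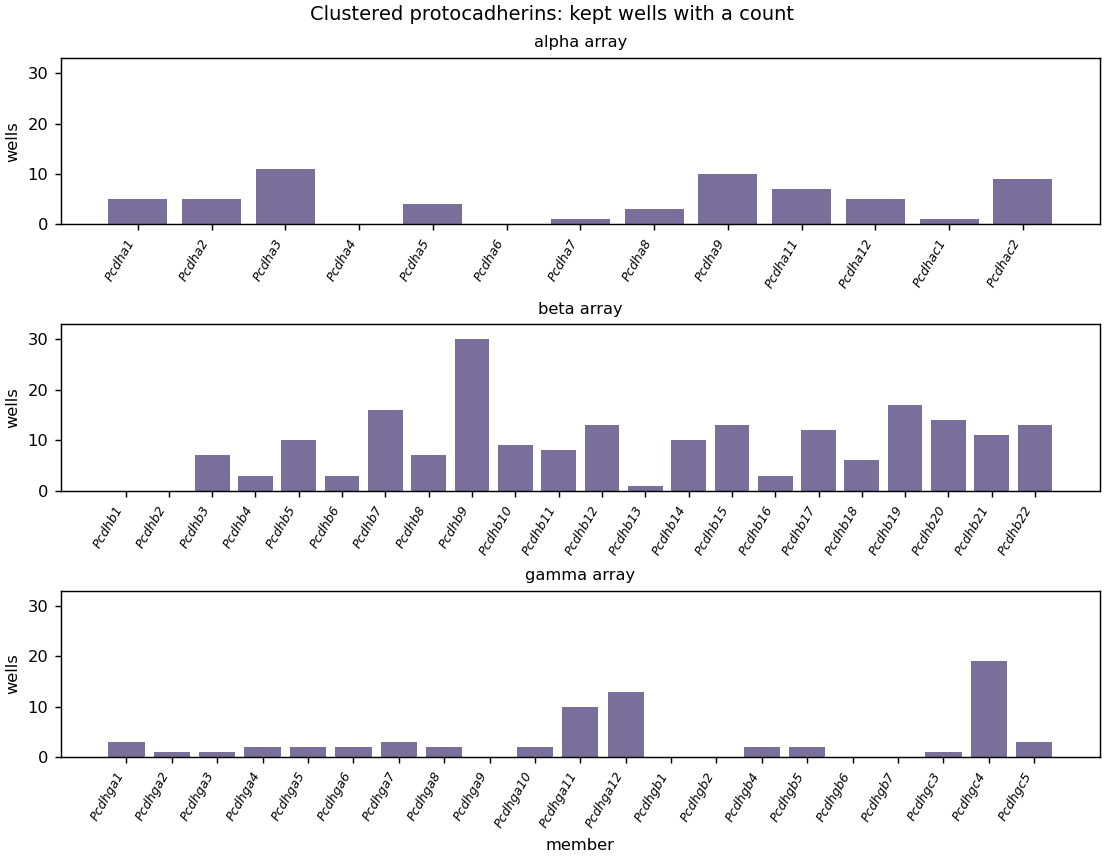
Number of kept wells (of 530) with a count of each clustered protocadherin, in the alpha, beta and gamma arrays; each bar is 1 gene. Pcdhb9 reached 30 wells and Pcdhgc4 19, and the tallest alpha bar, Pcdha3, reached 11.

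For the marker comparisons, counts were summed over detected and over undetected wells within each mouse and tested with edgeR's quasi-likelihood test with mouse as a block, with Benjamini-Hochberg adjustment over 9549 genes. Fold changes are log2 of detected over undetected wells. A lower sum can mean fewer wells with the transcript or fewer counts per well, which sums cannot tell apart. Of the 31 tested members, 5 results passed in 6 comparisons, all of them lower in the detected wells: Pcdh17 in Nr5a1-detected and in Sox14-detected wells, Pcdh8 in Tac1-detected wells, Cdh13 in Sst-detected wells and Cdh4 in Bcl11b-detected wells. No member passed as higher in a detected class. Each of the 5 was lower in 6 of 6 mice, but so was Dchs1 in Bcl11b-detected wells, which did not pass. A paired exact test on the log2 ratios of the 6 mice gave each of the 5 an adjusted p of 0.0804 over 18 named results. Dchs1 in Bcl11b-detected wells and Pcdh11x in Sox14-detected wells had the same value without passing in edgeR. The 18 results were picked by their edgeR p on the same sums. The adjustment therefore does not cover that choice, and the exact test is no separate support. The smallest p that test can give is 0.03125. At an unadjusted p under 0.05 the members counted 6 for Nr5a1 (7.08% of all genes), 1 for Tac1 (6.93%), 2 for Pdyn (7.73%), 1 for Sst (4.91%), 9 for Bcl11b (12.7%) and 5 for Sox14 (5.42%). None of the 5 passed in DESeq2 (adjusted p of 0.122 to 0.956), in wells thinned to 2000 counts with detection read again from the thinned counts (0.132 to 0.695), or without the mouse block (0.0617 to 1.00). Reading detection again moved wells between classes, so that Nr5a1-detected wells numbered 64, against 156 before thinning. With the thinned wells kept in their first classes, a setting added after seeing the data, Pcdh8 passed in Tac1-detected wells (log2 fold change -1.55, edgeR adjusted p = 0.0143) and the other 4 did not (0.0756 to 0.854).

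**Figure D3:**
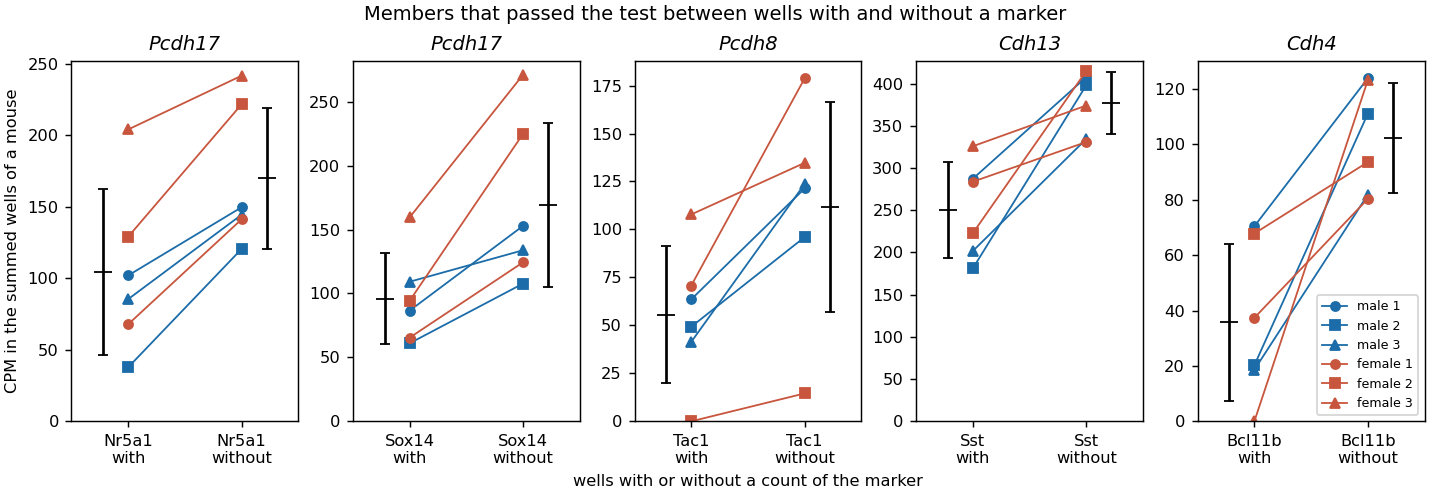
CPM of the 4 members that passed the edgeR test, in the summed wells of each mouse with the marker (left of each panel) and without it (right); lines join the classes of 1 mouse and bars give mean ± SD over 6 mice. Every line runs lower on the side with the marker, and the classes do not overlap for Cdh13 and Cdh4.

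Pcdh17 fell in Nr5a1-detected wells. Its level was 102, 37.7 and 85.4 CPM in Nr5a1-detected wells of males 1 to 3 and 67.8, 129 and 204 CPM in those of females 1 to 3, against 149.7, 121 and 144 CPM in Nr5a1-undetected wells of the males and 141, 222 and 242 CPM in those of the females. Each mouse was lower in its detected wells, but mice differed so much that the classes overlapped. The mean was 104 ± 57.8 CPM in detected and 169.9 ± 49.3 CPM in undetected wells (SD, n = 6 each), a log2 fold change of -0.72 (SE 0.165, edgeR adjusted p = 0.0048). Pcdh17 was the only 1 of 31 members that passed, beside 50 of 9549 genes (0.524%), of which 24 were higher (0.251%) and 26 lower (0.272%). The median log2 fold change was 0.05 over the tested members and -0.04 over all genes. A Pcdh17 count was found in 37.3 ± 19.0% of detected and 44.8 ± 10.4% of undetected wells. Without male 2 the edgeR adjusted p was 0.107, and with detection set at 2 or more Nr5a1 counts it was 0.151. Without the wells in which non-neuronal markers led, all of them undetected wells, the fold change was -0.71 (edgeR adjusted p = 0.0062). In wells with Nr5a1 and no other marker, where 2 mice had enough wells, the fold change was -0.22 (edgeR adjusted p = 0.999). The median of all genes was -0.18 there.

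The Nr5a1-detected wells were deeper in every mouse. Their median was 10317, 6413.5 and 9086.5 counts in males 1 to 3 and 6145.5, 2165 and 7428.5 in females 1 to 3, against 7490.5, 5782 and 7709.5 in the undetected wells of the males and 4554, 2074 and 6435.5 in those of the females. In thinned wells kept in their first classes, a Pcdh17 count was found in 18.6 ± 10.6% of detected and 23.3 ± 8.58% of undetected wells, lower in 5 of 6 mice, and the fold change was -0.53 (edgeR adjusted p = 0.854). With detection read again the shares were 20.9 ± 14.03% and 21.5 ± 8.99%, and the fold change was -0.49 (0.695). The median of all genes was -0.37 in that setting.

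Markers of other hypothalamic neurons also differed between these classes. The summed GABA markers (Gad1, Gad2, Slc32a1) stood at 0 to 69.8 CPM in Nr5a1-detected wells, with 2 of 3 detected and Slc32a1 at 0, against 43.1 to 107 CPM with 3 of 3 in undetected wells. Summed arcuate markers (Pomc, Agrp, Tbx3, Isl1) stood at 28.3 to 838 CPM with Agrp at 0, against 73.1 to 1642 CPM. In the 395 wells with no count of Gad1, Gad2, Slc32a1, Pomc or Agrp, Pcdh17 was again lower in Nr5a1-detected wells (log2 fold change -0.96, edgeR adjusted p = 0.0013). Tbx3 and Isl1 were not used to leave wells out.

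Pcdh17 also fell in Sox14-detected wells. Its level was 86.6, 61.1 and 109 CPM in Sox14-detected wells of males 1 to 3 and 65.5, 94.4 and 159.6 CPM in those of females 1 to 3, against 153, 108 and 134 CPM in Sox14-undetected wells of the males and 124, 225 and 271 CPM in those of the females. Every mouse was lower in its detected wells, and the classes overlapped. The mean was 96.04 ± 35.9 CPM in detected and 169 ± 64.5 CPM in undetected wells (log2 fold change -0.74, SE 0.171, edgeR adjusted p = 0.0048). No other member passed, beside 38 of 9549 genes (0.398%), 6 higher (0.0628%) and 32 lower (0.335%). Median well depth was higher in the Sox14-detected wells of 4 mice and lower in those of males 1 and 3. GABA markers stood at 4.36 to 47.2 CPM in detected and 36.5 to 129 CPM in undetected wells. Arcuate markers stood at 38.5 to 1281 CPM (median 46.1) in detected wells, with Agrp at 0, and at 76.9 to 1705 CPM (median 605) in undetected wells. In wells with no Gad1, Gad2, Slc32a1, Pomc or Agrp count the fold change was -1.01 (edgeR adjusted p = 0.00029). The call was lost without female 3 (adjusted p = 0.107), without male 1 (0.0664) and with 2 or more Sox14 counts (0.321).

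Nr5a1 and Sox14 were found together in 59 wells, so the 2 comparisons share wells. Pcdh17 stood at 96.1 ± 74.0 CPM in wells with both (n = 5 mice, since female 2 had none), 106 ± 53.3 CPM with Nr5a1 only, 94.7 ± 13.4 CPM with Sox14 only and 199.6 ± 53.9 CPM with neither (n = 6). The 97 wells with Nr5a1 only and the 112 with Sox14 only were each lower on average than the 262 with neither. Wells with both markers stood above those with Nr5a1 only in males 1 and 3 and female 3, and below them in male 2 and female 1. When both markers entered 1 edgeR fit, a setting added after seeing the data, the fold change was -0.67 for Nr5a1 (adjusted p = 0.0215) and -0.71 for Sox14 (adjusted p = 0.00594). That fit took the markers as additive, with no term for both together. Whether the difference for 1 marker depended on the other was not tested.

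**Figure D4:**
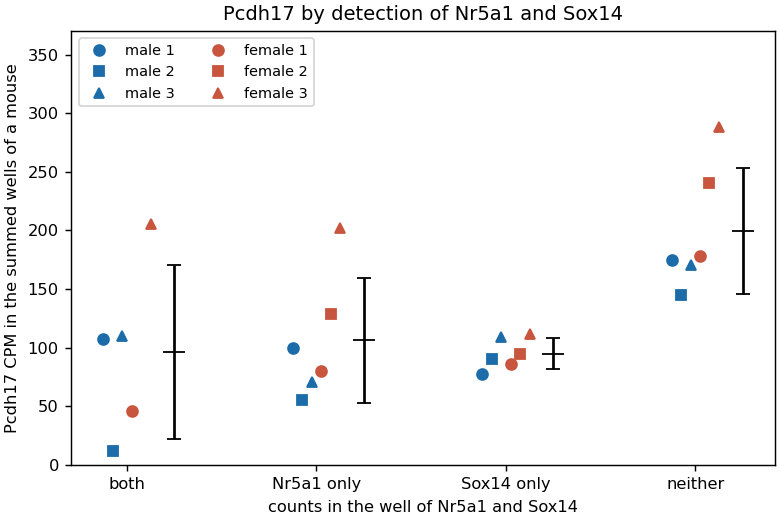
Pcdh17 CPM in the summed wells of each mouse, split by whether wells held a count of Nr5a1 and of Sox14; points are mice and bars mean ± SD. Wells with neither marker stood at 145 to 289 CPM, and those with Sox14 only at 77.2 to 112 CPM.

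Pcdh8 fell in Tac1-detected wells. Its level was 63.6, 49.3 and 41.4 CPM in Tac1-detected wells of males 1 to 3 and 70.8, 0 and 108 CPM in those of females 1 to 3, against 121, 96.1 and 124 CPM in Tac1-undetected wells of the males and 179, 14.6 and 135 CPM in those of the females. Female 2 held 2 counts of Pcdh8 in all. The mean was 55.5 ± 35.6 CPM in detected and 112 ± 54.7 CPM in undetected wells, with overlap between the classes (log2 fold change -0.96, SE 0.187, edgeR adjusted p = 0.000146). A Pcdh8 count was found in 28.5 ± 15.1% of detected and 41.5 ± 21.1% of undetected wells. In thinned wells kept in their first classes the shares were 7.28 ± 4.76% and 19.9 ± 9.09%, lower in 6 of 6 mice. No other member passed, beside 61 of 9549 genes (0.639%), 22 higher (0.23%) and 39 lower (0.408%), and the median was 0.17 over members and -0.02 over all genes.

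The Pcdh8 result passed without each mouse in turn (edgeR adjusted p of at most 0.0219). It also passed without the wells in which non-neuronal markers led (log2 fold change -0.98, edgeR adjusted p = 9.2e-05). Tac1-detected wells were deeper in 6 of 6 mice, with medians of 9315, 6627.5 and 10620 counts in males 1 to 3 and 6024, 2327 and 7867.5 in females 1 to 3, against 7026, 5241 and 7491 in undetected wells of the males and 4659, 1893 and 5432 in those of the females. Summed GABA markers stood at 0 to 70.9 CPM in Tac1-detected wells, with Slc32a1 at 0, and at 43.7 to 124 CPM in undetected wells. Arcuate markers stood at 56.6 to 653 CPM (median 174) in detected and 95.95 to 2283 CPM (median 563) in undetected wells. In wells with no Gad1, Gad2, Slc32a1, Pomc or Agrp count Pcdh8 was again lower (-1.07, edgeR adjusted p = 0.000248).

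Neither gene passed against the other's marker, and the difference between the 2 genes was not tested. In Tac1-detected wells Pcdh17 had a log2 fold change of 0.29 (edgeR adjusted p = 0.730), and without female 3 it was -0.047. In Sox14-detected wells Pcdh8 stood at 125, 109 and 128 CPM in males 1 to 3 and 131, 0 and 137 CPM in females 1 to 3, against 86.9, 52.3 and 69.1 CPM in undetected wells of the males and 124, 12.2 and 110.1 CPM in those of the females. It was higher in 5 of 6 mice but did not pass (log2 fold change 0.52, SE 0.186, edgeR adjusted p = 0.447). After thinning the value was -0.12 in the first classes and -0.26 with detection read again. Medians over all genes were -0.07 and -0.31 there. The same wells held more Pcdh11x, an X-linked protocadherin, in 6 of 6 mice, at 41.9 ± 19.8 CPM in Sox14-detected and 18.6 ± 13.6 CPM in undetected wells, which did not pass either (0.89, SE 0.341, adjusted p = 0.590).

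Cdh13 fell in Sst-detected wells. The gene lies on chromosome 8 at 118283733 to 119324921 (plus strand). Its level was 287, 181 and 202 CPM in Sst-detected wells of males 1 to 3 and 284, 223 and 326 CPM in those of females 1 to 3, against 408, 398 and 334 CPM in Sst-undetected wells of the males and 331, 415 and 374 CPM in those of the females. The classes did not overlap. The mean was 250.4 ± 56.7 CPM in detected and 377 ± 36.8 CPM in undetected wells (log2 fold change -0.63, SE 0.133, edgeR adjusted p = 0.0020). It was the only member among 12 genes called of 9549 (0.126%), 4 higher (0.0419%) and 8 lower (0.0838%). The median was -0.26 over members and -0.09 over all genes.

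A Cdh13 count was found in 63.96 ± 24.5% of Sst-detected and 73.2 ± 10.8% of undetected wells. In thinned wells kept in their first classes the shares were 40.7 ± 16.7% and 49.9 ± 7.63%, lower in 3 of 6 mice. The call was lost without male 2 (edgeR adjusted p = 0.234) and without male 3 (0.0897). It was kept without the wells in which non-neuronal markers led (log2 fold change -0.63, edgeR adjusted p = 0.0020). Median depth was higher in Sst-detected wells of females 1 and 3 and lower in those of the other 4 mice. GABA markers stood at 75.6 to 190.0 CPM in Sst-detected and 23.8 to 70.5 CPM in undetected wells, with no overlap. Arcuate markers stood at 81.9 to 1811 CPM (median 141) in detected and 67.3 to 1673 CPM (median 453) in undetected wells. In wells with no Gad1, Gad2, Slc32a1, Pomc or Agrp count the fold change was -0.65 (edgeR adjusted p = 0.0230).

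Cdh4 fell in Bcl11b-detected wells, a small class of 55 wells with 7 to 15 per mouse. The gene lies on chromosome 2 at 179442431 to 179899373 (plus strand). Its level was 70.4, 20.2 and 18.6 CPM in Bcl11b-detected wells of males 1 to 3 and 37.4, 67.8 and 0 CPM in those of females 1 to 3, against 124, 111 and 81.8 CPM in Bcl11b-undetected wells of the males and 80.3, 93.6 and 123 CPM in those of the females. The classes did not overlap, though the detected values rest on 10 counts in all. The mean was 35.7 ± 28.4 CPM in detected and 102 ± 19.8 CPM in undetected wells (log2 fold change -1.86, SE 0.407, edgeR adjusted p = 0.0010). A Cdh4 count was found in 15.2 ± 11.02% of detected and 36.7 ± 11.6% of undetected wells.

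No other member passed against Bcl11b, beside 187 of 9549 genes (1.96%), 22 higher (0.23%) and 165 lower (1.73%). The median of all genes was itself -0.24 with TMM scaling and -0.03 with RLE scaling, a shift of 0.21, and the members' median was -0.36 and -0.15. With RLE the Cdh4 fold change was -1.64 (edgeR adjusted p = 0.0111), so its distance from the median of all genes was of like size in both. It passed without each mouse in turn (adjusted p of at most 0.0334). Bcl11b-detected wells were shallower in 6 of 6 mice, with medians of 5039, 5037 and 6664 counts in males 1 to 3 and 5094, 2097 and 6116 in females 1 to 3, against 7971, 6031 and 7992 in undetected wells of the males and 5246, 2114 and 6879 in those of the females. GABA markers stood at 40.5 to 176 CPM in detected and 29.3 to 84.6 CPM in undetected wells. Arcuate markers stood at 0 to 83.5 CPM (median 52.6) in detected wells, with Agrp at 0, and at 85.9 to 1504 CPM (median 431) in undetected wells, with no overlap. In wells with no Gad1, Gad2, Slc32a1, Pomc or Agrp count Cdh4 was again lower (-2.03, edgeR adjusted p = 0.0404).

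Several further members differed in level between Bcl11b classes without passing. Pcdh17 stood at 101 ± 71.7 CPM in detected and 153 ± 60.4 CPM in undetected wells, lower in 5 of 6 mice (log2 fold change -0.91, SE 0.286, edgeR adjusted p = 0.0640). Without male 1 its adjusted p was 0.0287, and with no filter on low counts 0.0488. The type II cadherin Cdh12 stood at 37.6 ± 23.8 CPM in detected and 8.06 ± 7.40 CPM in undetected wells (adjusted p = 0.185), on 10 counts. Cdh8, another type II cadherin, stood at 64.5 ± 60.8 and 22.6 ± 5.89 CPM (adjusted p = 0.223), with 8 of its 18 detected counts in male 3 and 6 in female 3, and in thinned wells of the first classes its fold change was -0.0091. Pcdh10 stood at 15.4 ± 15.2 CPM in detected and 44.9 ± 16.6 CPM in undetected wells (adjusted p = 0.174). Dchs1 had no count among 302903 in Bcl11b-detected wells, which allows up to 9.90 CPM over the class (3 counts), and 39 counts in undetected wells, or 13.0 CPM. Its edgeR adjusted p was 0.149.

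In the Nr5a1 comparison the members next in order of p were Pcdh7 (log2 fold change -0.59, edgeR adjusted p = 0.437) and Cdh22 (0.53, 0.496). Cdh22 stood at 63.7, 123 and 63.1 CPM in Nr5a1-detected wells of males 1 to 3 and 93.2, 0 and 85.9 CPM in those of females 1 to 3, against 47.5, 74.2 and 53.4 CPM in undetected wells of the males and 63.3, 30.8 and 44.4 CPM in those of the females. It was higher in 5 of 6 mice and at 0 in the 9 detected wells of female 2. After thinning its fold change was 0.63 in the first classes and -0.059 with detection read again. The median of all genes was -0.37 in the latter setting. With detection set at 2 or more Nr5a1 counts, Pcdh7 was the member that passed in place of Pcdh17 (log2 fold change -1.39, edgeR adjusted p = 0.0306). In thinned wells of the first classes its fold change was 0.0077, and in wells with Nr5a1 alone 0.58, and neither passed. Fat1, in Tac1-detected wells, had a fold change of 0.77 (adjusted p = 0.787).

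Against Pdyn no member passed in edgeR, beside 99 of 9549 genes (1.04%), 56 higher (0.586%) and 43 lower (0.45%). DESeq2 called 26 genes there and no member. Cdh11, a type II cadherin, stood at 17.3 ± 9.50 CPM in Pdyn-detected and 24.2 ± 12.8 CPM in undetected wells (log2 fold change -0.79, edgeR adjusted p = 0.636). Dchs1 stood at 7.08 ± 7.44 and 14.9 ± 5.93 CPM (-1.03, adjusted p = 0.638), and Pcdh7 had a fold change of -0.40 (adjusted p = 0.699).

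The calsyntenins had no result that passed against any of the 6 markers. Clstn3 came nearest, with a log2 fold change of -0.36 in Bcl11b-detected wells (edgeR adjusted p = 0.467), and in Sst-detected wells it was -0.23 (0.996). Clstn3 stood at 209.5 ± 116 CPM in Sst-detected and 256 ± 71.4 CPM in undetected wells, and no Clstn3 count was found in the 15 Sst-detected wells of female 2. A value that misses the threshold does not show equal levels.

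**Figure D5:**
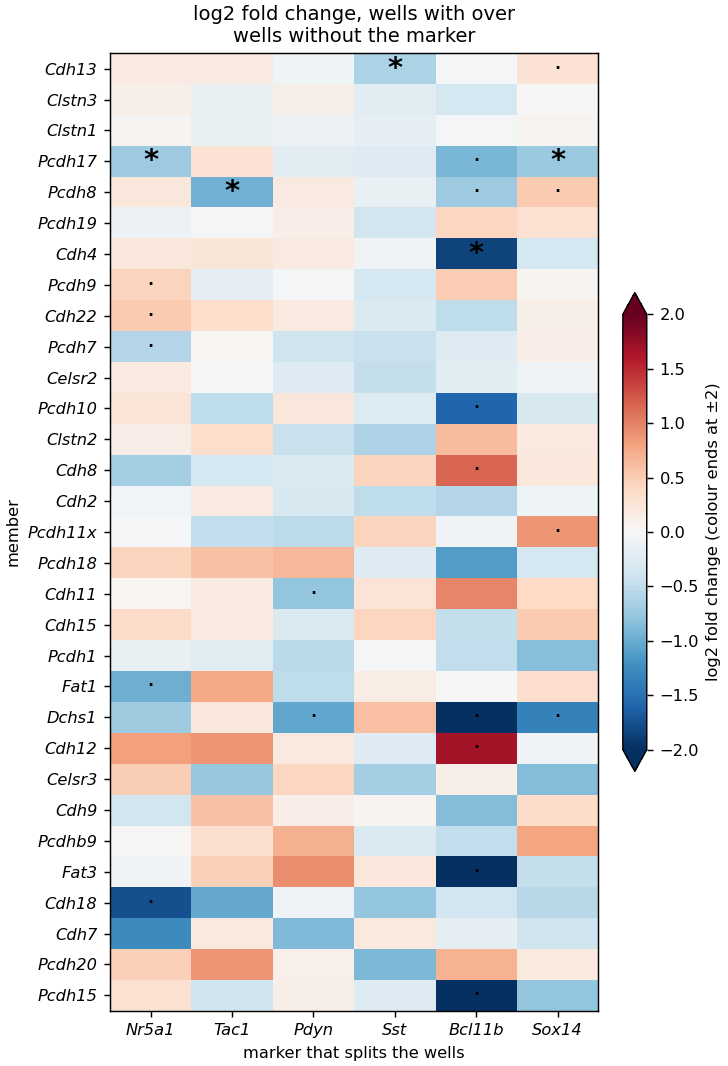
log2 fold change of each of the 31 tested members, detected over undetected wells, for the 6 markers; red is higher and blue lower in detected wells, and the colour scale ends at 2 in each direction. Asterisks mark the 5 results with an adjusted p under 0.05 and dots other results with an unadjusted p under 0.05; the darkest blue Bcl11b cells of Dchs1, Fat3 and Pcdh15 rest on 0 counts in detected wells.

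Of 38 partner genes (catenins, nectins, planar polarity and protocadherin signalling genes), 33 could be tested. Nectin3, which encodes an adhesion protein that works beside cadherins at junctions and lies on chromosome 16 at 46387706 to 46498525, was higher in 2 classes by the edgeR test. It stood at 85.6 ± 44.5 CPM in Nr5a1-detected and 54.3 ± 27.1 CPM in undetected wells (log2 fold change 0.86, SE 0.206, edgeR adjusted p = 0.0098), higher in 5 of 6 mice, with female 2 at 0. It stood at 93.5 ± 29.5 CPM in Pdyn-detected and 49.8 ± 17.9 CPM in undetected wells (0.88, SE 0.211, adjusted p = 0.0056), higher in 5 of 6 mice, with female 1 the exception. Nr5a1 and Pdyn were found together in 91 wells, and Pdyn-detected wells were deeper in 6 of 6 mice (medians of 2285 to 9807 counts against 2063 to 7243). Nectin3 passed in neither comparison in DESeq2 (adjusted p = 0.705 and 0.261), nor in thinned wells of the first classes, where its fold change was 0.24 for Nr5a1 (0.995) and 0.53 for Pdyn (0.994). With detection read again these were -0.039 and -0.10, beside medians of -0.37 and -0.10 over all genes. For Nr5a1, Nectin3 did not pass without female 1, female 3 or male 3 (edgeR adjusted p of 0.0665 to 0.671). Nor did it without the wells that held a Gad1, Gad2, Slc32a1, Pomc or Agrp count (0.298). For Pdyn it did not pass without female 3, male 2 or male 3 (0.0799 to 0.133). No catenin and no other partner passed against any of the 6 markers.

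Between the sexes no gene passed in edgeR (0 of 9549; 306, or 3.2%, had an unadjusted p under 0.05), while DESeq2 called 4 genes. No member passed in either, and 1 of 31 had an unadjusted p under 0.05. That member, Pcdh15, whose protein is best known from the tip links of hair cells, was at 3.83, 3.74 and 5.16 CPM in males 1 to 3 and at 11.3, 16.2 and 8.45 CPM in females 1 to 3 (log2 fold change of males over females -1.27, SE 0.565, edgeR adjusted p = 1.00). Fat1 was at 11.5, 11.2 and 12.9 CPM in males and 22.7, 16.2 and 25.3 CPM in females (-0.84, SE 0.443, adjusted p = 1.00). Fat3 had a fold change of -1.27 (SE 0.714, adjusted p = 1.00).

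The sexes did not overlap in 5 of 31 members, beside 868 of 9549 genes (9.09%). These were Pcdh15, Fat1 and Cdh18, lower in males, and Dchs1 and Cdh7, higher in males. They had 22 to 53 counts each. The difference between the sexes in a marker's effect was tested as an interaction for each of the 6 markers. No member passed in edgeR, beside 5 genes of 9549 for Nr5a1 (0.0524%), 3 for Pdyn (0.0314%), 2 each for Tac1, Sst and Sox14 (0.0209% each) and 1 for Bcl11b (0.0105%). DESeq2 called 0 genes, except 1 for Sox14. At an unadjusted p under 0.05 there were 2 members for Nr5a1 (3.86% of all genes), 2 for Tac1 (3.62%), 1 for Pdyn (4.2%), 0 for Sst (3.94%), 0 for Bcl11b (3.28%) and 2 for Sox14 (3.61%). The smallest adjusted p of a member was 0.938, for Pcdh7 and Sox14.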

How the data were processed

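Single-cell RNA counts came from 6 plates, 1 per mouse. The authors deposited raw counts of each gene in each well, as whole numbers with no scaling; HTSeq and mm10 are named in the submitters' processing notes. The sources used here name no aligner and do not say how strand or reads matching several genes were handled, or whether reads or molecules were counted. The precision of a level is set by the counts given above, and floors (3 counts) cover counting error only. No doublet caller was run.

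Genes with a count in at least 20 of 530 kept wells were tested. Counts were summed per mouse and class (at least 5 wells each) and tested with edgeR 4.0.16 in R 4.3.3 (TMM, quasi-likelihood, threshold 0.05), with mouse as a block for markers and no block for sex. Replicate numbers were shared by the sexes but are not stated to pair the mice. Deviations of mice with the same number correlated at -0.10, -0.09 and 0.14, and those of other pairs at -0.09 to 0.18. Values this small cannot decide whether mice were handled in pairs. The labels give separate mice. Alternatives used DESeq2 1.42.0, other scaling, filters, well and detection limits, wells thinned to 2000 counts and leaving out each mouse; thinned wells in classes drawn on all counts, the fit with Nr5a1 and Sox14 together and the CCAAT search were added after seeing the data. The fits were also run on simulated counts, in which mice differed only in their totals. Real mice differ in more than that, so this run does not bear on the calls above.

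The members, markers and lists were chosen with earlier results of these data known. Members named were those passing in each comparison, the smallest p up to 3 per comparison, and the 3 most widely detected of each subfamily, besides partner genes that passed; the other members given values were chosen after these were seen. Positions are from GENCODE vM21 (mm10), and promoters from RefSeq, in which 32 members matched.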

Additional observations from a re-analysis of the deposited data

Results flagged for a closer look

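In 3 of 18 named marker results, 1 mouse stood apart from the other 5 in its log2 ratio of detected over undetected wells, computed after adding 10 CPM to each level, by Dixon's gap over range. Chance alone flags about 1 in 20 groups, and the mouse was female 2, the shallowest, each time. For Cdh22 and Nr5a1 the ratio was -2.03 in female 2, beside 0.20 to 0.82 in the other mice, with 0 counts in its 9 detected wells. For Cdh11 and Pdyn it was 0.95, beside -1.08 to -0.35, and rested on 1 count in detected wells. For Clstn3 and Sst it was -4.05, beside -0.49 to 0.03, with 0 counts in its 15 detected wells. The part of depth in these values was not tested.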

How the results depend on the processing

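Every member result that passed kept its direction in each setting that gave a value, but its side of the threshold in 13 of 20 settings for Pcdh17 and Nr5a1 (-0.96 to -0.22), 15 of 19 for Pcdh8 and Tac1 (-1.55 to -0.84), 12 of 19 for Cdh13 and Sst (-6.20 to -0.53), 13 of 17 for Cdh4 and Bcl11b (-6.02 to -1.55), and 12 of 20 for Pcdh17 and Sox14 (-1.23 to -0.68). The values of -6.20 (Sst alone) and -6.02 (thinned wells) rest on few wells with the marker. The median of all genes also moved with the setting. In thinned wells with detection read again it was -0.37 (Nr5a1), -0.10 (Tac1), -0.31 (Sst), -0.68 (Bcl11b) and -0.31 (Sox14). In wells with Nr5a1 alone it was -0.18. Beside it, Pcdh17 and Nr5a1 stood at -0.49 in thinned wells and -0.22 in wells with Nr5a1 alone. Members called fell to 0 in these 5 comparisons with DESeq2, with thinned wells and with no replicate block, and in wells with that marker alone where run (thinned: detection read again); the cause was not tested, though thinning and single markers leave fewer counts. In thinned wells kept in their first classes, added after seeing the data, members called were 0 for Nr5a1, Sst, Bcl11b and Sox14, and genes 8 (Nr5a1), 10 (Tac1), 7 (Pdyn), 5 (Sst) and 8 (Sox14). With at least 2 counts of the marker, 0 members were called for Sox14, and with no filter on low counts 2 for Bcl11b. Over all genes, DESeq2 called 7 (Nr5a1), 8 (Tac1), 26 (Pdyn), 2 (Sst), 30 (Bcl11b), 6 (Sox14) and 4 (sex), and for interactions 0 except 1 for Sox14. Fits with no replicate block called 1, 2, 2, 2, 11 and 3 genes in the order of markers above. Sex with the replicate block called 1 gene, against 0 without it, and the numbers are not stated to pair the mice. Wells with 1 marker alone gave 2 (Nr5a1), 14 (Tac1), 10 (Pdyn), 1 (Sst) and 1 (Sox14), and for interactions 0 (Tac1), 1 (Pdyn) and 0 (Sox14). Wells without Gad1, Gad2, Slc32a1, Pomc or Agrp counts gave 29 (Nr5a1), 31 (Tac1), 58 (Pdyn) and 89 (Bcl11b), and for interactions 3 (Nr5a1), 1 (Sst) and 0 (Sox14). Thinned wells gave 7 (Tac1), 5 (Pdyn) and 65 (Bcl11b), and for interactions 0 (Nr5a1), 1 (Tac1), 1 (Sst), 0 (Bcl11b) and 1 (Sox14). RLE scaling gave 92 for Bcl11b, filterByExpr 51 for Bcl11b and 3, 1 and 0 for the Nr5a1, Tac1 and Bcl11b interactions. No filter gave 19 (Sst), 297 (Bcl11b), 20 (sex) and 4 (Sst interaction). At least 2 counts gave 89 (Nr5a1), 24 (Sst) and, for interactions, 1 (Nr5a1) and 4 (Sst). The Nr5a1 interaction gave 8 with at least 1000 genes per well and 8 without non-neuronal wells. Leaving out 1 mouse at a time gave 27 to 59 genes for Nr5a1, 37 to 58 for Tac1, 43 to 100 for Pdyn, 8 to 13 for Sst, 89 to 194 for Bcl11b, 22 to 45 for Sox14 and 0 to 3 for sex, and 3 to 6, 1 to 2, 2 to 6, 0 to 5, 0 to 2 and 1 to 4 for the interactions in the same order. Members called were then 0 to 1 for Nr5a1, Sst and Sox14, 1 to 1 for Tac1, 1 to 2 for Bcl11b and 0 to 0 elsewhere. Directions here are signs about 0, not about the median of all genes. In thinned wells with detection read again that median was -0.37 for Nr5a1, -0.10 for Pdyn and -0.31 for Sox14. Signs reversed only among values that had not passed, apart from Nectin3 in thinned wells (-0.039 for Nr5a1, -0.10 for Pdyn). In thinned wells of the first classes these were Pcdh7 and Nr5a1 (0.0077), Cdh8 and Bcl11b (-0.0091) and Pcdh8 and Sox14 (-0.12). With detection read again they were Cdh22 and Nr5a1 (-0.059), Pcdh8 and Sox14 (-0.26), and the interactions of Cdh13 with Nr5a1 (0.14), Pcdh18 with Pdyn (-0.13), Cdh8 with Sst (-1.39) and Celsr2 with Sox14 (4.25). In wells with 1 marker alone they were Pcdh7 and Nr5a1 (0.58) and the interactions of Pcdh7 with Tac1 (-0.11) and Celsr2 with Sox14 (0.38). Leaving out 1 mouse, Pcdh17 and Tac1 ranged from -0.047 (without female 3) to 0.45 and their interaction from -0.98 to 0.30 (without female 3). The Pcdh19 interaction with Bcl11b then ranged from -0.014 (without male 1) to 1.55. It was -0.13 without the wells that held a Gad1, Gad2, Slc32a1, Pomc or Agrp count. Bcl11b with 2 counts or alone, its interaction in both, and the Nr5a1 and Sst interactions alone could not be fitted for lack of wells. The 72 members with a count in under 20 wells were not tested, 17 of them with no count.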

Other observations

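Cdh15 (M-cadherin), found in 54 wells, varied more between mice of 1 sex than between sexes. Its level was 1.28, 28.0 and 20.7 CPM in males 1 to 3 and 47.6, 32.3 and 1.69 CPM in females 1 to 3, so male 1 and female 3 held almost none while female 1 stood highest. A count was found in 1.08%, 17.9% and 13.0% of the wells of males 1 to 3 and in 21.6%, 6.90% and 1.16% of those of females 1 to 3. No marker comparison passed for it.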
